A study of Homo sapiens with 12 samples.

Results

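The cholesterol synthesis, uptake and efflux genes are 32 genes taken by symbol from the 26364 gene rows of the count table, by a list of genes with a known place in sterol metabolism. Membership uses no measured value, but the genes were chosen with earlier results of these data known. They comprise 18 enzymes from acetoacetyl-CoA to cholesterol, 9 genes that supply the isoprenoid branch, regulate SREBP2 or move and store sterol, and 5 genes of efflux and of the liver X receptors (LXR). The cells were MDA-MB-231, a triple-negative human breast cancer line with mesenchymal character, in 12 wells whose RNA was sequenced. There were 3 wells each with no drug, with 1 µM dexamethasone (DEX, a synthetic glucocorticoid that activates the glucocorticoid receptor), with 8 µM SH4-54 (a compound that blocks the transcription factors STAT3 and STAT5), and with both compounds, all for 24 h. All wells came from this 1 line, and what vehicle, if any, the no-drug wells received is not given.

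Cells make cholesterol from acetyl-CoA through mevalonate, farnesyl diphosphate, squalene and lanosterol. The transcription factor SREBP2 drives the genes of this route when sterol in the endoplasmic reticulum is low: SCAP escorts it to the Golgi for cleavage, and the INSIG proteins hold SCAP back when sterol is high. Oxysterols formed when sterol is plentiful activate LXR, which induces the exporters ABCA1 and ABCG1 and the ubiquitin ligase MYLIP, so synthesis and efflux genes are known to answer sterol in opposite directions.

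Total counts per library ran from 25577213 to 35758236. The line's mesenchymal markers were present in all 12 libraries: VIM ran from 805 to 1370 CPM (counts scaled to library size), AXL from 635 to 971 and ZEB1 from 64.9 to 85.1. ESR1 stayed at or below 0.233 CPM, PGR at or below 0.45, the leukocyte gene PTPRC at or below 0.733 and the hepatocyte gene ALB at or below 0.0777. Other luminal, HER2 and epithelial markers set out beforehand as low were not all so. GATA3 stayed at or below 1.67 CPM, but ERBB2 ran from 73.8 to 90.4 CPM, a range like that of ZEB1. EPCAM ran from 17.3 to 23.2 CPM and CDH1 from 5.29 to 15.1. The glucocorticoid target FKBP5 lay between 52.4 and 55.6 CPM without drug and between 310 and 345 with DEX. The combination wells differed among themselves: FKBP5 stood at 202, 181 and 271 CPM in replicates 1, 2 and 3, and the heat shock gene HSPA6 at 150, 483 and 156 CPM, against 24.0 ± 4.07 with SH4-54 alone and 0.394 ± 0.217 with DEX alone (SD, n = 3). Replicate 2 of the combination, the well with the highest HSPA6, was the lowest of the 3 combination wells for 15 of the 18 synthesis enzymes, and replicate 3 was the highest for 15 of 18. The part of this difference in the results below was not tested, so the enzyme counts that involve the combination are also given without replicate 2 and without replicate 3.

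Of the 32 genes, 31 had enough counts to be tested. ABCG1, a cholesterol exporter and LXR target, was not among them: it ran from 0.0377 to 0.3 CPM over the 12 wells, with counts of 1 to 9. In what follows, CPM values carry the SD over 3 wells and log2 fold changes carry a standard error (SE). A gene is said to have risen or fallen when the adjusted p of edgeR's quasi-likelihood test, over all 14184 tested genes, was below 0.05. In bulk RNA, fewer cells of one kind and less RNA per cell cannot be told apart.

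DEX alone raised the synthesis enzymes together. With DEX against no drug, 17 of the 18 rose, against 21.9% of all tested genes that rose and 23.2% that fell. The median log2 fold change of the 18 was 0.463, against -0.0111 over all tested genes. For each of the 18 the 3 DEX wells lay above the 3 wells without drug. Over all 14184 tested genes they lay above for 3851 and below for 4106. The exception to the call was TM7SF2, a sterol reductase (log2 fold change 0.43 ± 0.18, adjusted p = 0.067). TM7SF2 did pass in 6 of 19 alternative fits, DESeq2 among them (adjusted p = 0.0306). Over these 19 fits its adjusted p ran from 0.00179 to 0.2.

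The rise ran along the whole route. At its entry, HMGCS1, the HMG-CoA synthase, stood at 57.6, 55.6 and 52.1 CPM without drug and at 75.9, 79.1 and 75.7 CPM with DEX. The groups did not overlap, and the change was 39.5% (log2 fold change 0.48 ± 0.078, edgeR adjusted p = 0.000137). ACAT2, the cytosolic thiolase that makes acetoacetyl-CoA, rose by a log2 fold change of 0.26, and the mevalonate kinases MVK and PMVK by 0.50 and 0.18. The decarboxylase MVD rose by 0.47 and the isomerase IDI1 by 0.27. The call for PMVK was lost without no-drug replicate 2 or 3 or DEX replicate 1 or 2, with adjusted p of 0.0878, 0.0726, 0.0569 and 0.0506. PMVK was also not called by DESeq2 (adjusted p = 0.054).

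In the middle of the route, FDPS, which makes farnesyl diphosphate, rose by 0.35 on the log2 scale, and FDFT1, the squalene synthase, by 0.42. SQLE, the squalene epoxidase and a known rate-limiting step, went from 30.7, 29.7 and 30.2 CPM to 47.2, 46.3 and 42.4 CPM, a rise of 50.1%. The groups were far apart relative to their spread. LSS, which closes the sterol ring system, rose by 0.52 on the log2 scale.

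After lanosterol, MSMO1, the methylsterol monooxygenase, had the highest rise of any enzyme apart from HSD17B7. Its wells read 87.5, 93.1 and 87.6 CPM without drug and 144, 146 and 149 CPM with DEX. No well overlapped, and the rise was 63.9% (log2 fold change 0.71 ± 0.078, edgeR adjusted p = 2.97e-06). CYP51A1, the lanosterol demethylase, rose by 0.56, DHCR7, a terminal sterol reductase, by 0.52, NSDHL by 0.45, the isomerase EBP by 0.34 and the desaturase SC5D by 0.29. HSD17B7 had a log2 fold change of 0.72 ± 0.21, and its call was lost without no-drug replicate 1 or DEX replicate 2 (adjusted p of 0.0589 and 0.0525). Its reads, and those of FDPS, IDI1 and CYP51A1, are uncertain because RefSeq names pseudogene copies of these genes and how shared reads were handled is not given.

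**Figure D1:**
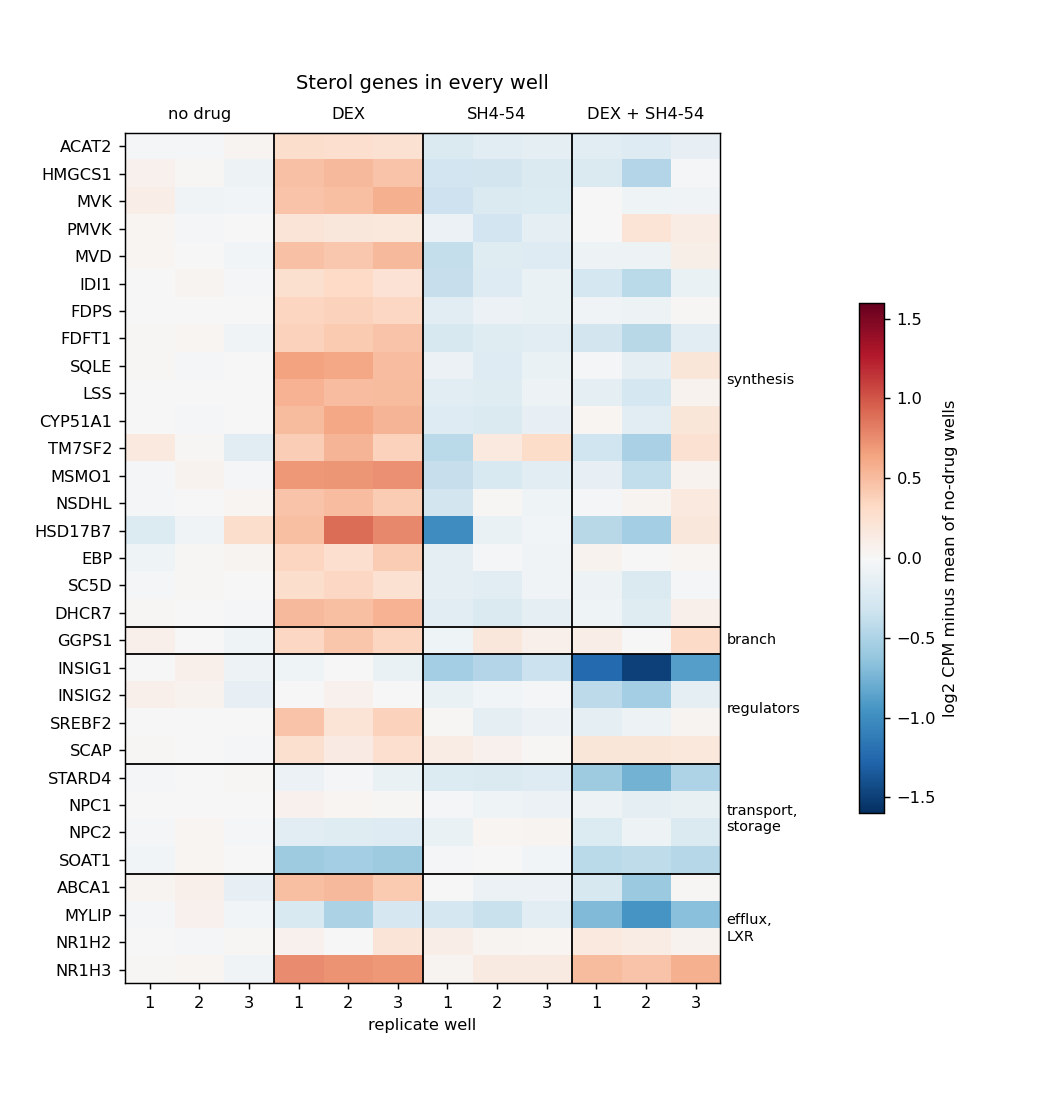
Log2 CPM of each tested gene (vertical axis, grouped by role) in each well (horizontal axis, 3 wells a group), minus its mean over the wells without drug; red is higher and blue lower. The 3 DEX wells are red across the 18 synthesis rows, with well medians of 0.46, 0.48 and 0.46, while the combination wells have medians of -0.08, -0.20 and 0.05 and the deepest blue stands at INSIG1.

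The regulators and the efflux genes did not move as a block with DEX. SREBF2, which encodes SREBP2, rose by 0.35 ± 0.065 on the log2 scale, from a mean of 38.5 ± 0.174 CPM to 49.1 ± 3.99 CPM. SCAP, its escort, rose by 0.22, and GGPS1, which makes geranylgeranyl diphosphate, by 0.37. INSIG1, itself a known SREBP2 target, stood at 117, 123 and 109 CPM without drug and at 111, 116 and 108 CPM with DEX. The groups overlapped, and its log2 fold change was -0.06 ± 0.1 (edgeR adjusted p = 0.695). INSIG2 at 0.02 and STARD4, a sterol carrier and another known SREBP2 target, at -0.07 also did not pass.

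Of the genes of lysosomal export and storage, NPC2 fell by 0.20 on the log2 scale and NPC1 stood at 0.04 (adjusted p = 0.329). SOAT1, which esterifies cholesterol for storage, had the largest fall of any tested member. It read 298, 313 and 308 CPM without drug and 207, 210 and 205 CPM with DEX. The groups were separate, and the level fell by 32.2% (log2 fold change -0.56 ± 0.029, edgeR adjusted p = 1.06e-09).

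Among the 4 tested efflux and LXR genes, 2 rose with DEX, 1 fell and 1 did not pass, against 21.9% of all tested genes that rose and 23.2% that fell. ABCA1, the main exporter of cellular cholesterol, read 98.5, 102 and 87.9 CPM without drug and 134, 137 and 128 CPM with DEX. All DEX wells were higher, by 38.6% on average (log2 fold change 0.47 ± 0.1, edgeR adjusted p = 0.00165). NR1H3, which encodes LXR alpha, read 23.1, 23.3 and 22.0 CPM against 38.4, 37.6 and 37.0 CPM, a separate and tight pair of groups, with a log2 fold change of 0.72 ± 0.047. MYLIP, the ubiquitin ligase that marks lipoprotein receptors for degradation, went the other way, from 17.9, 19.2 and 17.7 CPM to 15.4, 12.8 and 15.1 CPM, with a log2 fold change of -0.34 ± 0.083. NR1H2, which encodes LXR beta, did not pass (0.09 ± 0.048, adjusted p = 0.145). ABCA1 and NR1H3 rose like the synthesis enzymes, and MYLIP fell. NR1H3 overlaps ACP2 in RefSeq, and without the strand setting of the counting its reads and those of such neighbours cannot be told apart. The same holds for other genes here that overlap a neighbour or antisense gene, among them ACAT2 with TCP1, MVK with MMAB, GGPS1 with ARID4B, IDI1 with WDR37, ABCA1 with NIPSNAP3B, NPC1 with RMC1, and STARD4, SREBF2 and CYP51A1 with antisense genes.

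The promoters of the genes were searched for the boxes of SREBP, its partner NF-Y and LXR. RefSeq windows (GRCh38.p14, 250 bases before to 50 after the start) matched 28 of the 32 genes, all but ACAT2, FDFT1, SQLE and ABCG1. The letters CCAAT, the box bound by NF-Y, a known partner of SREBP, were searched on both strands (ATTGG on the printed strand is a match on the other). They were present in 12 of the 15 synthesis enzyme windows (80.0%) and in 18 of 28 windows of all the genes (64.3%), against 35.7% of 27305 promoter windows of the same length. PMVK, IDI1 and CYP51A1 rose with DEX and had no match, while SOAT1, NPC2 and MYLIP fell and had one, and it was in 3 of the 4 transport and storage windows (75.0%). The classical sterol regulatory element TCACCCCAC was found in 1 of 28 windows, that of SREBF2, at positions -133 to -125 on the printed strand (the first transcribed base is 0), and in 0.425% of all windows. A looser form with any base at the fifth position, TCACNCCAC, contains the strict motif and matched the same 1 window, against 1.15% of all windows. The LXR direct repeat (AGGTCA, any 4 bases, AGGTCA) was in 0 of 28 windows and in 0.0183% of all windows, and its looser form (GGTCA, any 4 bases, GGTCA), which contains the strict one, in 0 of 28 and 0.0549%. A match is a description of letters and not a shown site. A window without a match may still hold a box that departs from the exact letters searched.

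Of these upstream windows 4 are printed 5′ to 3′ in the direction of the gene, 250 bases each, with CCAAT or ATTGG and the sterol regulatory element in capitals. MSMO1 (chr4:165327419-165327668, plus strand) is shown as a synthesis enzyme with a large DEX rise. SREBF2 (chr22:41832855-41833104, plus strand) is shown as the window with the sterol regulatory element. INSIG1 (chr7:155297628-155297877, plus strand) is the known SREBP2 target that did not pass with DEX. ABCA1 (chr9:104928156-104928405, minus strand) is an efflux gene with no match to the exact letters searched.
MSMO1: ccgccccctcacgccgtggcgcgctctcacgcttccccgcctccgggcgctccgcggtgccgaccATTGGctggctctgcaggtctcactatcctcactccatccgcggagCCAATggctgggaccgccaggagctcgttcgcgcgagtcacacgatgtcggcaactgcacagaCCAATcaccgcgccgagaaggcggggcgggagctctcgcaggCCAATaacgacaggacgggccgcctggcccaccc
SREBF2: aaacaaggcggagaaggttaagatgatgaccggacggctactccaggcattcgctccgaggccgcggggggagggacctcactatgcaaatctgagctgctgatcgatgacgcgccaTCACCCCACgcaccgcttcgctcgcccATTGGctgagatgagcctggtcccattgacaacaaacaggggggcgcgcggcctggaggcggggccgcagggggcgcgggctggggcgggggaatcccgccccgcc
INSIG1: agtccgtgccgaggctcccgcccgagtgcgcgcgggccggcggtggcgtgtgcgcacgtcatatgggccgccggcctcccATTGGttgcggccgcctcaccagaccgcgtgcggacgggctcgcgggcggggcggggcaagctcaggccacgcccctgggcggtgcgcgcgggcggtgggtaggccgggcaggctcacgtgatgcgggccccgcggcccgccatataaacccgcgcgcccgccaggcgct
ABCA1: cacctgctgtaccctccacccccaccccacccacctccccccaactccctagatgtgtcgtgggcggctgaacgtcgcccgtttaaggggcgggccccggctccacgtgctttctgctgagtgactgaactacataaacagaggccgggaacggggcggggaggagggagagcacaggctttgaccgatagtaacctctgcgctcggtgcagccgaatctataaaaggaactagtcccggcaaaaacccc
MSMO1 holds 4 CCAAT boxes, 3 of them on the printed strand, while INSIG1 and SREBF2 hold 1 each, on the other strand. In SREBF2 the box lies at positions -106 to -102, downstream of the sterol regulatory element.

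**Figure D2:**
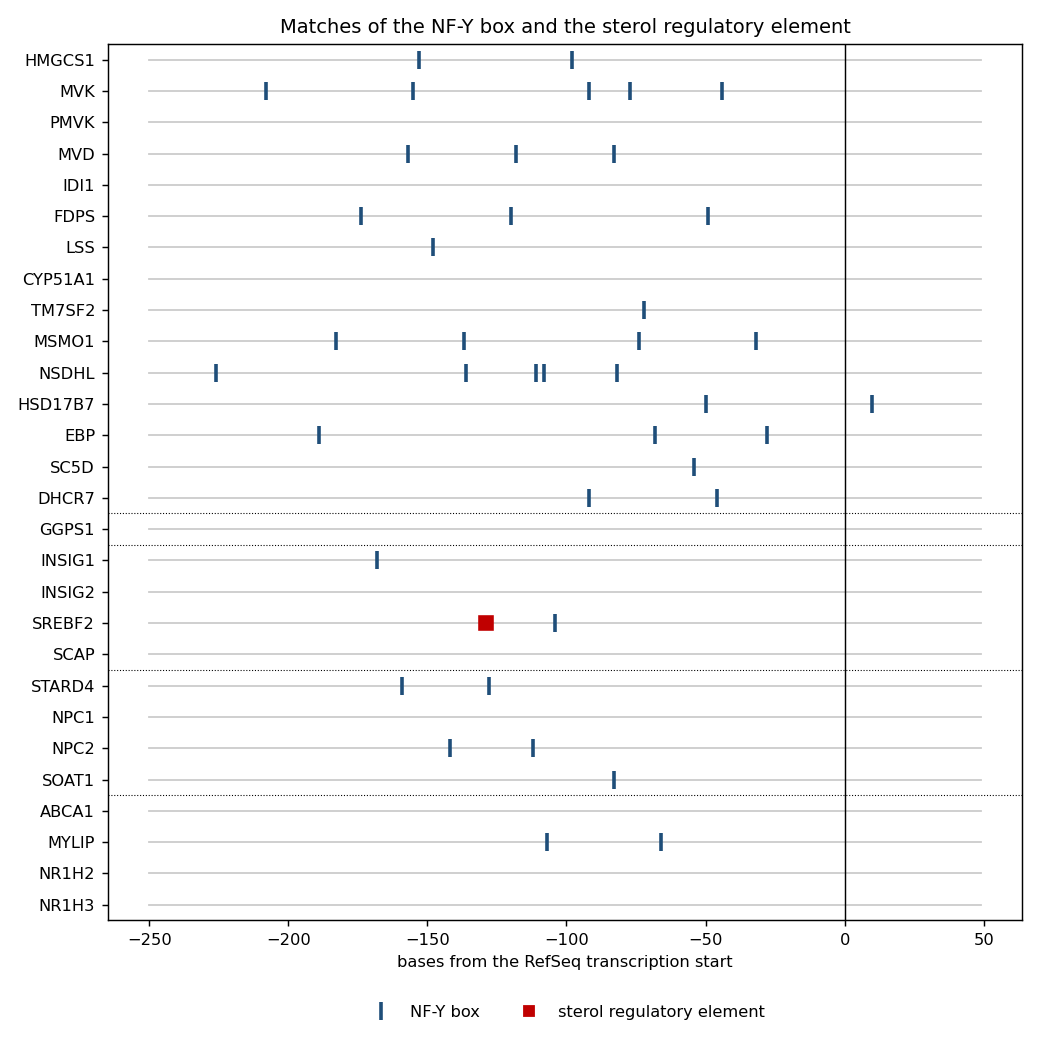
Positions of the CCAAT box (blue ticks) and of the strict sterol regulatory element (red square) in the 28 promoter windows, with bases from the RefSeq start on the horizontal axis and genes by role on the vertical axis. Boxes are present in 12 of the 15 synthesis windows, and the 1 sterol regulatory element lies in SREBF2.

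SH4-54 alone was followed by small decreases in most synthesis enzymes, few of which passed. With SH4-54 against no drug, 2 of 18 fell, ACAT2 and MVK, against 0.331% of all tested genes that fell and 0.268% that rose. The median log2 fold change of the 18 was -0.187, against -0.00363 over all tested genes. For 14 of the 18 the SH4-54 wells lay below all wells without drug, as they did for 1716 of the 14184 tested genes. For 1295 of all tested genes they lay above. At an unadjusted edgeR p below 0.05, 13 of 18 were lower, and 1862 of the 14184 tested genes passed in either direction. ACAT2 read 97.9, 102 and 103 CPM against 113, 113 and 119 CPM without drug, a log2 fold change of -0.18 ± 0.034 (edgeR adjusted p = 0.0214). MVK read 22.8, 24.6 and 24.7 CPM against 31.0, 27.7 and 27.9 CPM, a log2 fold change of -0.26 ± 0.055 (edgeR adjusted p = 0.0457). Neither gene's groups overlapped.

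These calls stand near the threshold. The count of 2 became 0 without any 1 of the 3 no-drug or 3 SH4-54 libraries, 1 without any 1 of the 3 DEX libraries or combination replicate 1, 6 without combination replicate 2 and 7 without combination replicate 3. Enzymes with decreases that did not pass included HMGCS1 (-0.28 ± 0.079, adjusted p = 0.149), MSMO1 (-0.27 ± 0.08, adjusted p = 0.164) and MVD (-0.26 ± 0.06, adjusted p = 0.0739).

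Outside the enzymes, edgeR called 0 of the 4 efflux and LXR genes and 0 of the 9 other genes with SH4-54 alone, with 2 and 2 of them at an unadjusted p below 0.05, and DESeq2 called 0 and 1. INSIG1 had the lowest value, 79.9, 83.8 and 91.3 CPM against 117, 123 and 109 CPM. The groups were separate, but the log2 fold change of -0.45 ± 0.1 did not pass (edgeR adjusted p = 0.0739). STARD4 was similar, at -0.22 ± 0.051 (adjusted p = 0.0811). The 9 other genes gave 2 calls without combination replicate 2 and 2 without combination replicate 3. ABCA1 (-0.07 ± 0.1), SOAT1 (-0.03 ± 0.029) and SREBF2 (-0.08 ± 0.066) had overlapping groups.

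In DEX-treated cells the same compound came with a fall across the route. With both compounds against DEX alone, 17 of 18 synthesis enzymes fell, against 13.5% of all tested genes that fell and 13.0% that rose. The median log2 fold change was -0.541, against 0.00475 over all tested genes. PMVK did not pass (-0.06 ± 0.064, adjusted p = 0.492). Without combination replicate 2 the count was 16, and without combination replicate 3 it was 17. Because this comparison and DEX against no drug share the DEX wells, the falls here and the rises above are not independent.

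HMGCS1 read 47.0, 39.7 and 54.2 CPM with both compounds, against 75.9, 79.1 and 75.7 CPM with DEX. All combination wells were lower, replicate 2 most of all, and the level fell by 38.8% (log2 fold change -0.71 ± 0.079, edgeR adjusted p = 3.72e-05). MSMO1 read 81.9, 68.3 and 92.6 CPM against 144, 146 and 149 CPM. Again no well overlapped, and the level fell by 44.7% (log2 fold change -0.85 ± 0.079, edgeR adjusted p = 7.01e-06). FDFT1 read 104, 93.5 and 113 CPM against 165, 170 and 175 CPM, a log2 fold change of -0.72 ± 0.054. Every one of its combination wells was also at or below the SH4-54 wells' highest value of 114 CPM. The smallest falls that passed were those of EBP (-0.32), FDPS (-0.39) and NSDHL (-0.39). TM7SF2 fell by 0.58 on the log2 scale, and this call was lost without DEX replicate 1 or 2 or combination replicate 1 or 2, with adjusted p of 0.0546, 0.0966, 0.0907 and 0.119.

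INSIG1, which DEX alone did not raise, had the largest fall of the 31 tested genes. It read 48.8, 41.0 and 62.9 CPM with both compounds, against 111, 116 and 108 CPM with DEX. The groups were far apart, and the level fell by 54.3% (log2 fold change -1.13 ± 0.11, edgeR adjusted p = 8.35e-06). STARD4 read 63.7, 55.8 and 67.1 CPM against 88.4, 93.0 and 87.9 CPM, a log2 fold change of -0.53 ± 0.052. INSIG2 fell by 0.38, SREBF2 by 0.41, NPC1 by 0.16 and GGPS1 by 0.23. The call for GGPS1 was lost without any DEX library (adjusted p of 0.05 after rounding, 0.116 and 0.0557) and without combination replicate 1 or 2 (0.0906 and 0.136). SOAT1 rose by 0.13 ± 0.03, and SCAP (-0.03) and NPC2 (0.02) did not pass.

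Of the efflux and LXR genes, 3 of 4 fell with both compounds against DEX, against 13.5% of all tested genes, and 3 did so without combination replicate 2 or without replicate 3. ABCA1 read 80.3, 63.4 and 97.1 CPM against 134, 137 and 128 CPM. Its combination wells varied widely and all lay below DEX, with a log2 fold change of -0.73 ± 0.1 (edgeR adjusted p = 0.000244). MYLIP read 11.2, 9.42 and 11.4 CPM against 15.4, 12.8 and 15.1 CPM, a log2 fold change of -0.43 ± 0.087. NR1H3 read 32.3, 31.3 and 33.7 CPM, below its DEX wells and above its wells without drug, with a log2 fold change of -0.21 ± 0.046 against DEX. ABCA1, NR1H3 and MYLIP all went the way of the synthesis enzymes in this comparison.

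**Figure D3:**
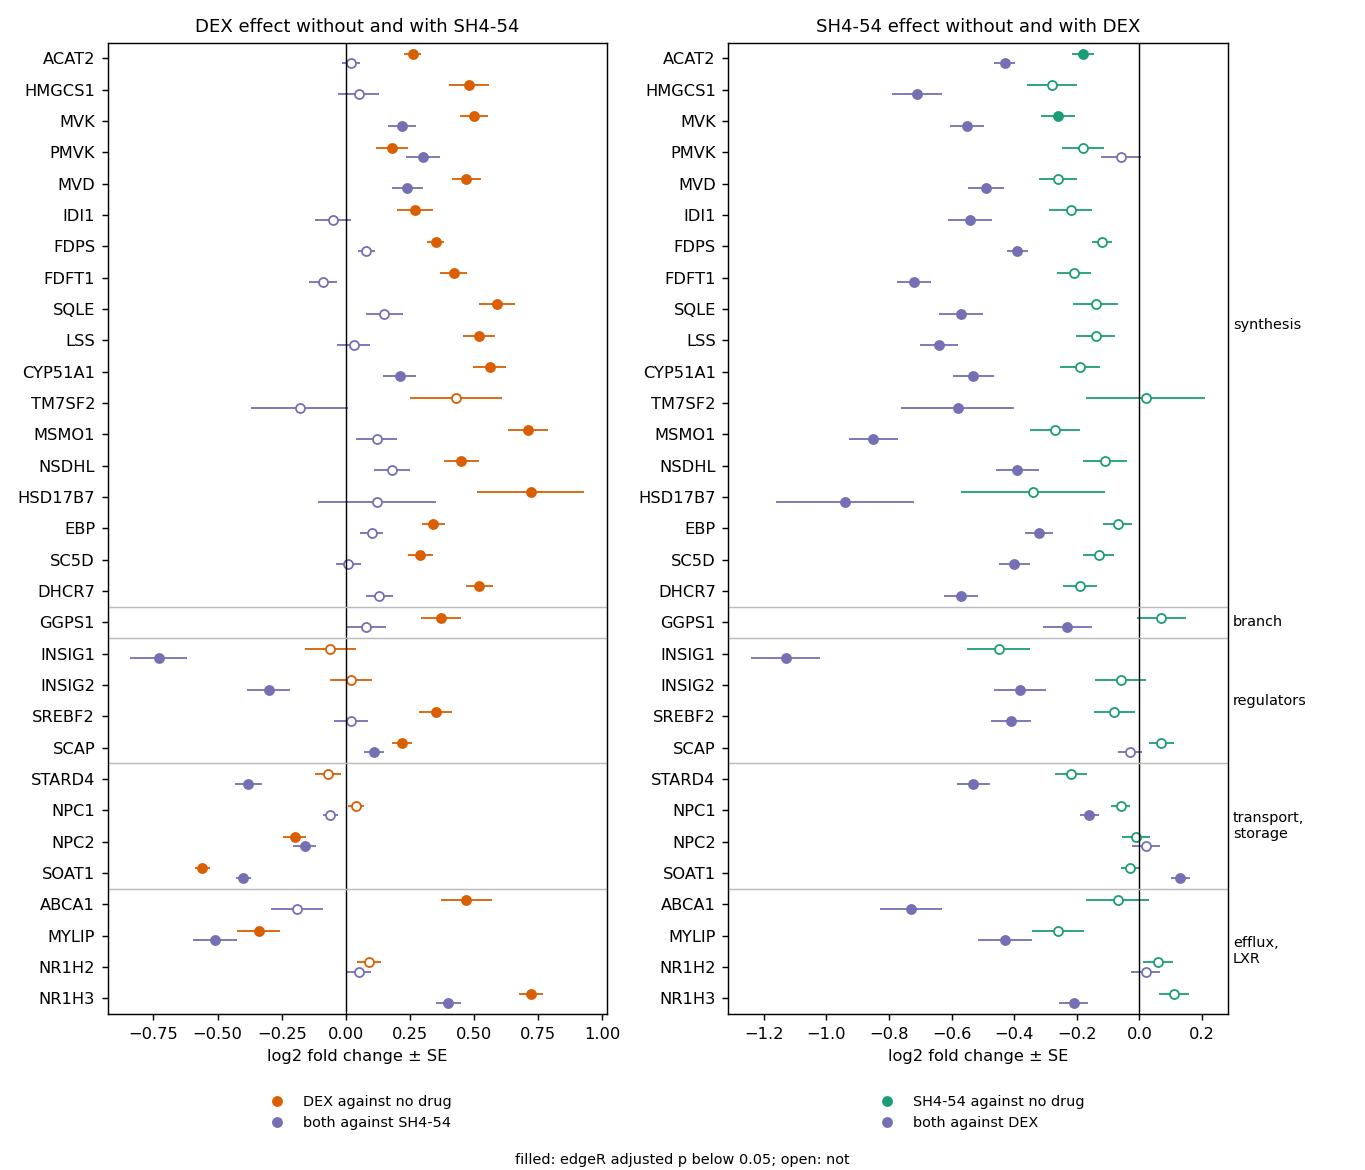
Log2 fold change with SE (horizontal axis) of each gene (vertical axis, by role): left, DEX against no drug (orange) and both against SH4-54 (purple); right, SH4-54 against no drug (green) and both against DEX (purple); filled points passed at adjusted p below 0.05. On the left 17 of 18 enzymes are filled for DEX alone and 4 of 18 with SH4-54 present; on the right 2 of 18 are filled for SH4-54 alone and 17 of 18 with DEX present.

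Set against wells without drug, the combination left most synthesis enzymes near their starting level and INSIG1 and STARD4 well below it. Of the 18 enzymes, 4 fell (ACAT2, HMGCS1, IDI1 and FDFT1), a share of 22.2%, close to the 21.6% of all tested genes that fell; 21.1% of all tested genes rose. The median of the 18 was -0.0846, against 0.00431 over all tested genes, and the combination wells had medians of -0.08, -0.20 and 0.05. Without combination replicate 3 the count was 8, and without replicate 2 it was 3. FDFT1 fell by 0.30 ± 0.054 on the log2 scale, IDI1 by 0.27, HMGCS1 by 0.23 and ACAT2 by 0.17. The call for HMGCS1 was lost without no-drug replicate 1 or 2 or combination replicate 1 or 2, with adjusted p of 0.108, 0.0753, 0.0716 and 0.13.

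With both compounds INSIG1 fell by 56.0% from its level without drug (log2 fold change -1.19 ± 0.11, edgeR adjusted p = 4.07e-07). Its highest combination well, 62.9 CPM, lay below the lowest well of each other group, 79.9 CPM with SH4-54 alone. STARD4 fell by 34.0% (-0.60 ± 0.051), with its highest combination well at 67.1 CPM below every other well. Without combination replicate 2 these log2 fold changes were -1.05 for INSIG1 and -0.53 for STARD4, both still passing. INSIG2 fell by 0.36, NPC1 by 0.12, NPC2 by 0.18 and SOAT1 by 0.43, while SCAP rose by 0.19. In all, 6 of these 9 genes fell, which is 66.7%, and 1 rose, against 21.6% of all tested genes that fell and 21.1% that rose.

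Of the efflux and LXR genes, NR1H3 remained above the level without drug (0.51 ± 0.047, adjusted p = 5.82e-07) and MYLIP reached its lowest level of the 4 groups, 10.7 ± 1.1 CPM against 18.3 ± 0.785 CPM without drug (-0.77 ± 0.085). ABCA1 did not pass (-0.26 ± 0.1, adjusted p = 0.0603), and its groups overlapped through combination replicate 3. The count of genes that rose, 1, was 2 without DEX replicate 2, DEX replicate 3 or combination replicate 3, and the count that fell, 1, was 2 without no-drug replicate 3 or combination replicate 3. Among the 9 other genes, the count that rose, 1, was 2 without combination replicate 2.

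**Figure D4:**
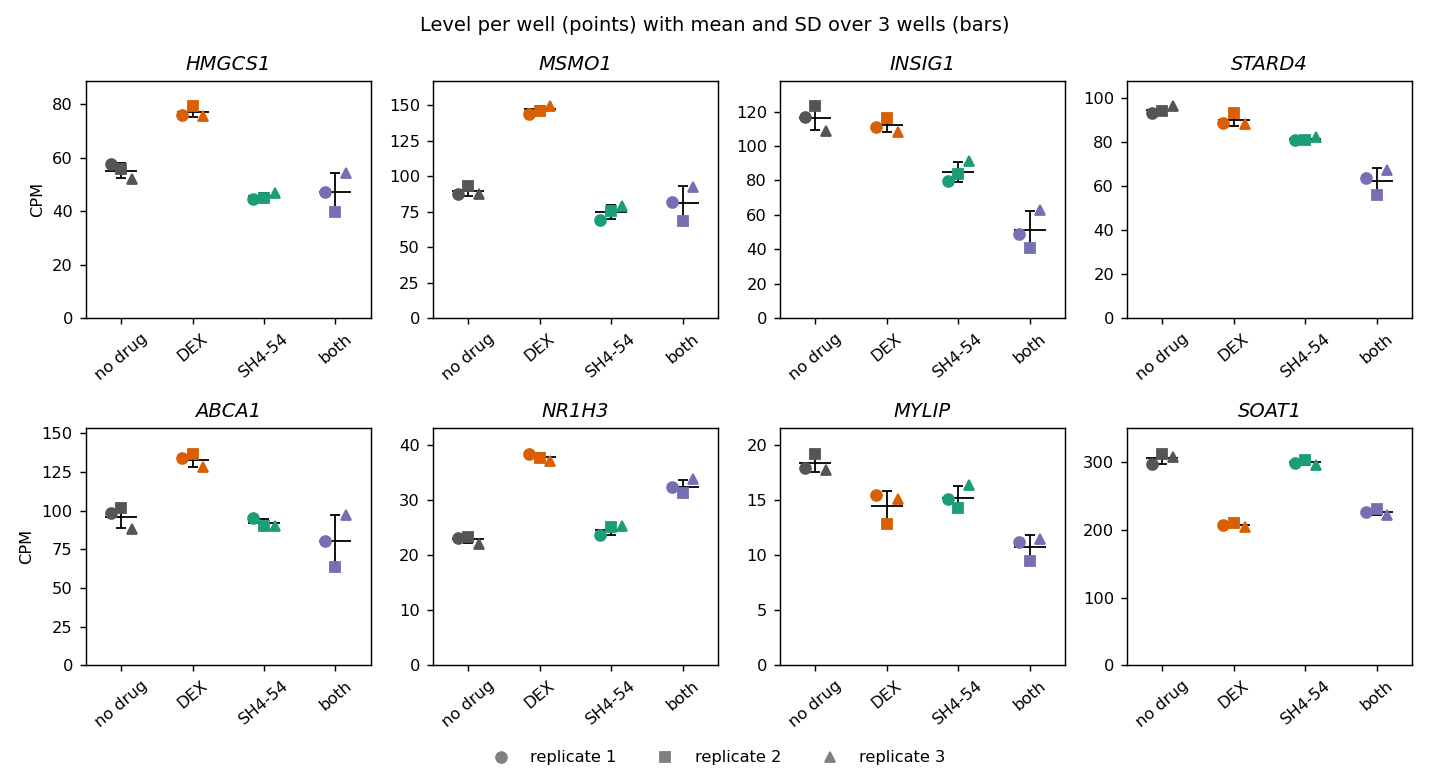
CPM (vertical axes, from 0) of 8 genes in each well by treatment group (horizontal axes); points are wells, with the replicate number by shape, and bars are the mean and SD over 3 wells. HMGCS1 and MSMO1 are high in the DEX wells alone, INSIG1 and STARD4 are lowest with both compounds, SOAT1 is low in both groups with DEX, and replicate 2 of the combination is the lowest of its group for 7 of these genes.

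Added to SH4-54, DEX was followed by smaller changes in the enzymes. With both compounds against SH4-54 alone, 4 of 18 rose (MVK, PMVK, MVD and CYP51A1), 22.2%, against 20.1% of all tested genes that rose and 20.3% that fell. The median was 0.108, against 0.00466 over all tested genes. PMVK rose by 0.30 ± 0.065, from 15.5, 13.4 and 15 CPM to 16.7, 19.4 and 18 CPM,, the 1 enzyme with a larger value here than for DEX against no drug. MVD rose by 0.24, MVK by 0.22 and CYP51A1 by 0.21. The CYP51A1 call was lost without SH4-54 replicate 2 or combination replicate 3 (adjusted p of 0.0608 and 0.0908). The count of 4 was 8 without combination replicate 2, where MSMO1 passed at 0.23 (adjusted p = 0.00634), and 3 without combination replicate 3, where 1 enzyme also fell.

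In the same comparison INSIG1 fell by 0.73 ± 0.11 on the log2 scale, STARD4 by 0.38, INSIG2 by 0.30, NPC2 by 0.16 and SOAT1 by 0.40. SCAP rose by 0.11, a call lost without SH4-54 replicate 2 or 3 or combination replicate 1 or 2 (adjusted p of 0.0733, 0.131, 0.0848 and 0.0692). NR1H3 rose by 0.40 ± 0.047 and MYLIP fell by 0.51 ± 0.087, while ABCA1 did not pass (-0.19 ± 0.1, adjusted p = 0.166). The efflux and LXR genes that fell numbered 2 without combination replicate 3. SOAT1 and MYLIP were therefore lower with DEX whether or not SH4-54 was present, and NR1H3 was higher in both settings.

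The interaction tests the difference itself: the DEX effect with SH4-54 minus the DEX effect without it, on the log2 scale. Of the 18 enzymes, 10 had a negative interaction that passed, against 1.46% of all tested genes with a negative and 2.44% with a positive one. The median was -0.33, against 0.0057 over all tested genes, and 17 of the 18 values were negative. The 10 were ACAT2 (-0.25), HMGCS1 (-0.43), FDPS (-0.26), FDFT1 (-0.51), SQLE (-0.43), LSS (-0.49), MSMO1 (-0.59), EBP (-0.25), SC5D (-0.27) and DHCR7 (-0.38). For MSMO1 the DEX effect was 0.71 without and 0.12 with SH4-54 (interaction -0.59 ± 0.11, edgeR adjusted p = 0.0131). For FDFT1 it was 0.42 without and -0.09 with SH4-54 (interaction -0.51 ± 0.077, edgeR adjusted p = 0.00432). PMVK, at 0.12 ± 0.092, was the 1 positive value.

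Many of these calls stand near the threshold. The count of 10 was 5 without no-drug replicate 2, 6 without no-drug replicate 3, DEX replicate 1, SH4-54 replicate 3 or combination replicate 1, 9 without combination replicate 2 and 16 without combination replicate 3. FDPS, FDFT1, LSS, MSMO1 and DHCR7 among the enzymes, and NR1H3, passed in all 12 fits that left out 1 library. Of the rest, ACAT2 was lost in 1 of the 12 fits (without no-drug replicate 2, adjusted p = 0.0506), SQLE in 8, EBP in 9, HMGCS1 in 10 and SC5D in 11, with adjusted p no higher than 0.122. Their values kept their sign in these fits, from -0.57 to -0.34 for HMGCS1, from -0.56 to -0.38 for SQLE, from -0.30 to -0.21 for EBP and from -0.33 to -0.23 for SC5D.

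Among the other genes, the interaction was -0.68 ± 0.15 for INSIG1 (edgeR adjusted p = 0.0226) and -0.31 ± 0.072 for STARD4 (0.0307), and 0.16 ± 0.042 for SOAT1 (0.0471). INSIG1 was lost in 5 of the 12 fits, STARD4 in 6 and SOAT1 in 10, with highest adjusted p of 0.0682, 0.0735 and 0.147. The count of 2 negative interactions here was 0 without no-drug replicate 3 or SH4-54 replicate 2 or 3, 1 without no-drug replicate 1 or 2, DEX replicate 2 or combination replicate 1, and 5 without combination replicate 3. The single positive one remained only without no-drug replicate 1 or combination replicate 3. SREBF2 had an interaction of -0.33 ± 0.092 that did not pass (adjusted p = 0.0581).

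For the efflux and LXR genes, ABCA1 had -0.66 ± 0.15 (edgeR adjusted p = 0.0252) and NR1H3 -0.32 ± 0.066 (0.0171), both negative like the enzymes. The call for ABCA1 was lost without no-drug replicate 3, DEX replicate 1 or 2 or SH4-54 replicate 2, with adjusted p of 0.0735, 0.0527, 0.0632 and 0.057. MYLIP (-0.16 ± 0.12) and NR1H2 (-0.04 ± 0.067) did not pass.

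**Figure D5:**
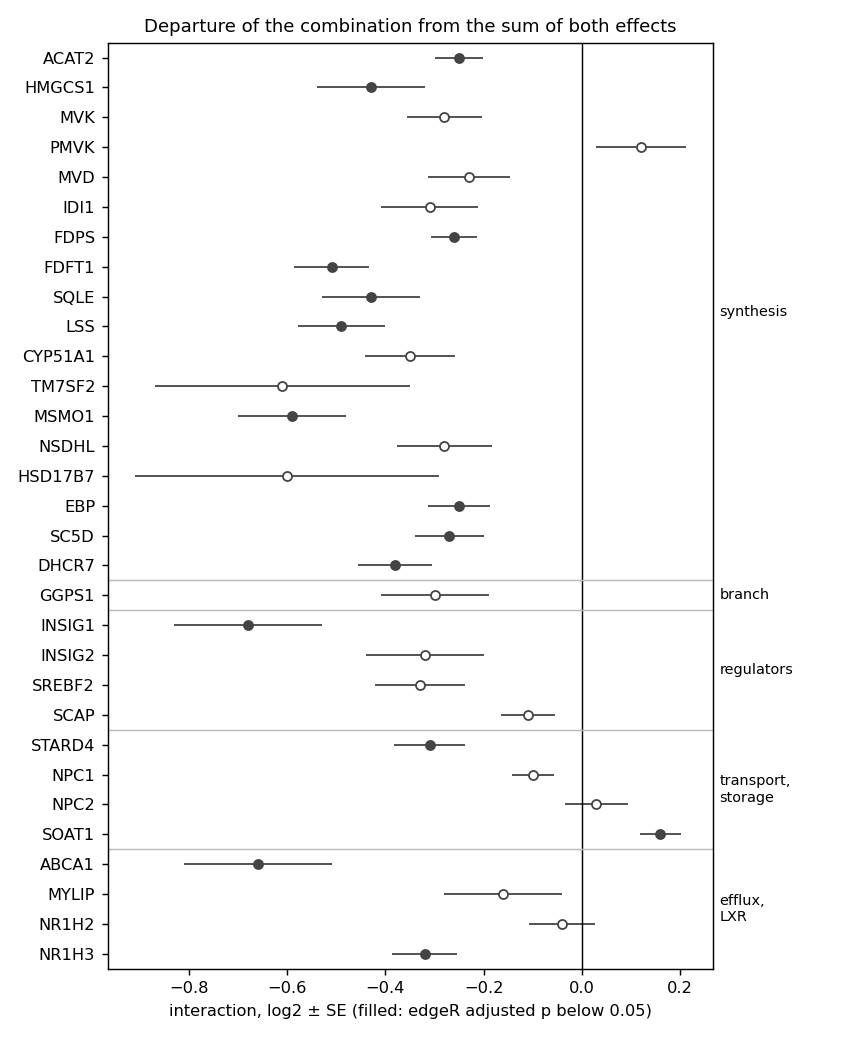
Interaction of DEX and SH4-54 with SE (horizontal axis, log2) for each of the 31 tested genes (vertical axis, by role); filled points passed at adjusted p below 0.05. Filled points are negative for 10 enzymes, INSIG1, STARD4, ABCA1 and NR1H3, and positive for SOAT1.

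Set side by side, the synthesis and the efflux genes did not form opposite blocks in these cells. Among the 18 enzymes the DEX group had the highest mean level in all 18, and SH4-54 alone had the lowest in 15, with the combination lowest in the other 3 (IDI1, FDFT1 and TM7SF2). Among the 3 groups other than DEX, the combination passed against SH4-54 for MVK, PMVK, MVD and CYP51A1 only, SH4-54 against no drug for ACAT2 and MVK only, and the combination against no drug for ACAT2, HMGCS1, IDI1 and FDFT1 only. Of the 4 tested efflux and LXR genes, ABCA1 had the pattern of most enzymes, highest with DEX, but with its lowest mean in the combination, 80.3 ± 16.8 CPM. NR1H3 was ordered no drug, SH4-54, combination and DEX, at 22.8 ± 0.725, 24.6 ± 0.902, 32.4 ± 1.2 and 37.7 ± 0.727 CPM, with the first pair not differing by the test (adjusted p = 0.348). MYLIP was ordered combination, DEX, SH4-54 and no drug, at 10.7, 14.4, 15.2 and 18.3 CPM. Its DEX and SH4-54 wells overlapped. NR1H2 passed in none of the 6 comparisons and ran from 65.1 to 75.7 CPM over all wells.

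The 65 tested neighbours of the pathway outside the 32 genes were in 6 lists, chosen by function with earlier results of these data known. Of these 65, 28 rose with DEX and 10 fell, 43.1% and 15.4%, against 21.9% and 23.2% of all tested genes. Their median log2 fold change was 0.113, against -0.0111 over all tested genes. Among 4 genes linked to sterol synthesis, MMAB, a cobalamin enzyme gene that overlaps MVK, rose by 0.61 and C14orf1, a scaffold of the sterol demethylation enzymes, by 0.50, while LBR, a nuclear membrane protein with sterol reductase activity, fell by 0.53 on the log2 scale. Among 7 tested LXR targets, partners and oxysterol genes, 4 rose and 2 fell, and CYP27A1, which makes an oxysterol, rose by 1.07. Of 17 sterol transporters and lipoprotein receptors, 8 rose and 3 fell, with CAV1, the caveolar protein, at 0.61 and GRAMD1B, which carries sterol from the plasma membrane, at -2.17. Of 13 genes of SREBP processing and sterol-regulated degradation, 4 rose, among them ERLIN2 (0.38) and TMEM97 (0.25), and 2 fell, including SREBF1 (-0.18), which encodes the sister factor SREBP1. Of 14 isoprenoid-using genes, 5 rose and 1 fell.

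The fatty acid synthesis genes, which SREBP1 is known to drive, gave 5 rises and 2 falls of 11 with DEX, 45.5% and 18.2%, against 21.9% and 23.2% of all tested genes. The rises numbered 7 without combination replicate 2 and 7 without replicate 3, with 2 falls each time. ELOVL6 fell, with a log2 fold change of -0.34 ± 0.037. ACSS2, which makes acetyl-CoA from acetate, read 48.4, 44.7 and 42.4 CPM without drug and 83.8, 87.8 and 85.9 CPM with DEX, a log2 fold change of 0.93 ± 0.082. SCD, the stearoyl-CoA desaturase, did not pass (0.25 ± 0.12, adjusted p = 0.101). With both compounds against DEX, 9 of these 11 fell and 1 rose, against 13.5% and 13.0% of all tested genes. Without combination replicate 2, 8 fell and 0 rose, and without replicate 3, 9 fell and 0 rose (1 rose at an unadjusted p below 0.05 with all libraries, and DESeq2 gave 0). SCD read 180, 149 and 248 CPM against 441, 418 and 408 CPM, with no overlap and a log2 fold change of -1.13 ± 0.12. ACSS2 fell by 0.73 and SREBF1 by 0.50. The interaction passed for 4 of the 11, all negative, against 1.46% of all tested genes with a negative one (4 without combination replicate 2 and 9 without replicate 3), including SCD (-0.81 ± 0.17, edgeR adjusted p = 0.0207) and ACSS2 (-0.54 ± 0.12, edgeR adjusted p = 0.022).

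Over all 65 neighbours, the fatty acid genes included, 25 fell and 7 rose with both compounds against DEX, 38.5% and 10.8%, against 13.5% and 13.0% of all tested genes. Without combination replicate 2, 19 fell and 6 rose, and without replicate 3, 30 fell and 6 rose. MMAB fell by 0.65 and C14orf1 by 0.39, CYP27A1 by 0.43 and OSBPL5, an oxysterol-binding protein relative, by 0.60, while GRAMD1B rose by 0.64. With SH4-54 alone 3 of the 65 fell, LBR (-0.16), CAV1 (-0.16) and LPIN1 (-0.36), and 1 rose; without combination replicate 3, 6 fell. The interaction passed for 9 of the 65, against 1.46% of all tested genes negative and 2.44% positive: 7 negative (7 without combination replicate 2 and 20 without replicate 3), including MMAB (-0.49), LRP8, a lipoprotein receptor (-0.29), and SCARB2 (-0.28), and 2 positive (1 and 4 without these wells), including RABGGTB (0.20).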

How the data were processed

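Libraries from 12 MDA-MB-231 wells were made after removal of ribosomal RNA, per the labels' protocols. The deposited file holds the authors' unnormalised counts, 1 value per gene symbol and library. Per the submitters' processing notes, the tools were HISAT2 2.1.0, SAMtools and featureCounts 1.5.1, with hg19 and GRCh37 as builds. Annotation, strand setting and treatment of shared reads are not given. Sample titles gave groups and replicate numbers (the treatment tag spells SH4-54 as SH5-54). Replicates are wells, per the labels, and p-values therefore reflect well-to-well spread only, which may be technical.

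edgeR 4.0.16 (R 4.3.3) was run with filterByExpr by group (14184 genes kept), TMM scaling and 1 quasi-likelihood fit of 4 groups over 12 libraries (8 residual degrees of freedom). Adjusted p-values (Benjamini-Hochberg, threshold 0.05) ran over all tested genes. SE is the size of the log2 fold change divided by the root of F; log2 CPM used a prior count of 2. The test was tried on simulated data. All 32 genes are named. From the lists outside them, up to 2 genes a list and comparison are named by size of change, if they passed, reached 5 CPM on average in a group and had groups without overlap (not asked of the interaction); some items that this rule takes are not reported here, and SREBF1, C14orf1 and SCD with DEX were singled out after their values were seen. The genes and lists were chosen with earlier results of these data known. Same-numbered wells did not deviate together (correlations -0.0975 to 0.0926 over 18 pairs), so no pairing was used. Alternatives were DESeq2 1.42.0, its size factors in edgeR, other count filters, a replicate block, only the groups compared, leaving out each library, and dropping the 10 genes with most reads.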

Additional observations from a re-analysis of the deposited data

Results flagged for a closer look

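For 15 of the 31 tested genes the DEX effect with SH4-54 differed from the DEX effect without it, by the interaction test in edgeR's quasi-likelihood fit (adjusted p below 0.05 over all tested genes). Of these, 14 were negative and 1 positive, against 1.46% and 2.44% of all tested genes. Each value here is the log2 DEX effect with SH4-54 minus that without it. Among the synthesis enzymes the difference was -0.25 for ACAT2, -0.43 for HMGCS1, -0.26 for FDPS, -0.51 for FDFT1, -0.43 for SQLE, -0.49 for LSS, -0.59 for MSMO1, -0.25 for EBP, -0.27 for SC5D and -0.38 for DHCR7. INSIG1 had -0.68 and STARD4, the sterol carrier, -0.31. SOAT1, the storage enzyme, was the 1 gene with a positive difference, 0.16, from a DEX effect of -0.56 without SH4-54 to -0.40 with it. Among the efflux and LXR genes it was -0.66 for ABCA1 and -0.32 for NR1H3. Only FDPS, FDFT1, LSS, MSMO1, DHCR7 and NR1H3 passed in each of the 12 fits that left out 1 library.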

How the results depend on the processing

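In 19 alternatives, 12 of them leaving out 1 library, no gene's call reversed. The median of all genes moved by far less than 0.1 under every scaling. For SH4-54 alone, the synthesis enzymes that fell numbered 2, but 6 with DESeq2, 6 with no count filter, 1 with the replicate block, 6 with the compared groups alone and 0 to 7 when libraries were left out. The other genes that fell numbered 0, but 1 with DESeq2, 2 with no filter, 2 with the groups alone and 0 to 2 on leaving out libraries. Over all genes 38 rose and 47 fell, against 76 and 109 with DESeq2, 82 and 94 with no filter and 70 and 82 with the groups alone, and 19 to 72 and 11 to 93 on leaving out libraries. For both against no drug, leaving out libraries gave 3 to 8 enzymes lower, 1 to 2 efflux and LXR genes higher, 1 to 2 lower and 1 to 2 other genes higher; the stricter filter gave 2 efflux and LXR genes higher and no filter 2 lower. For both against DEX, all genes that rose ranged from 923 to 2026 on leaving out libraries. For both against SH4-54 the range was 3 to 8 enzymes higher (7 with the stricter filter), 0 to 1 lower, 1 to 2 efflux and LXR genes lower and 0 to 1 other genes higher (0 with no filter or the groups alone). For the interaction, leaving out libraries gave 5 to 16 enzymes, 1 to 2 efflux and LXR genes and 0 to 5 other genes with negative values, 0 to 1 other genes with positive ones, and 109 to 845 positive and 68 to 1186 negative values over all genes; SOAT1 was lost with DESeq2 size factors, no filter or the replicate block (0 other genes positive), and negative values over all genes numbered 370 with DESeq2 and 389 with no filter. The interaction has no fit with the compared groups alone. The cause of these shifts was not tested. The replicate numbers did not pair the wells (3 of 12 libraries correlated best with their own number), and the replicate block ended the calls for MVK with SH4-54 (adjusted p = 0.0817), GGPS1 against DEX (0.0512) and HMGCS1, EBP, SC5D and SOAT1 in the interaction (0.0606, 0.0604, 0.0639 and 0.0606), and added NSDHL and DHCR7 against SH4-54 (0.0426 and 0.0474). ABCG1, with at most 9 counts in a library, was too low to be tested.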
